A study of Caenorhabditis elegans with 2 samples.

Results

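The 294 regions described here are the autosomal UNC-62 regions whose summits lie at divergent promoters. They were taken from the 4849 regions that the authors called on the pooled reads of both replicates, of which 3790 lie on autosomes. A region was included where its summit fell inside the promoter windows of at least 2 genes, with at least 1 gene on each strand. Each protein-coding transcript start in the WBcel235 assembly (ce11) was given a promoter window of 1000 bp upstream and 500 bp downstream. The rule used position only. At 285 of the 294 regions (96.9%, 95% Wilson interval 94.3 to 98.4) the paired genes stood head to head with starts that pointed away from each other, as the name divergent promoter implies. At the other 9 regions the genes overlapped, with starts that lay past each other.

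The regions come from chromatin immunoprecipitation and sequencing (ChIP-seq) of UNC-62 in whole L4 larvae of Caenorhabditis elegans, in 2 biological replicates of a single group. The worms were of strain OP600, so all of them carried the unc119 allele ed3 and the transgene wgIs600, which combines unc-62::TY1 EGFP FLAG, a fusion with its GFP-FLAG tag at the C-terminal end of UNC-62, with a copy of unc119. Males and females were pooled, the age of the worms is given as unknown, and 1 donor line served both replicates. The antibody is listed as unc-62, with no word on whether it bound the protein or its tag, and whole worms average over all tissues.

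UNC-62 is the worm member of the Meis and Homothorax family of TALE-class homeodomain factors, which bind DNA with Pbx-class and Hox partners, and TGACAG is the core word known for Meis-class factors. In worms it is known for roles in the development of neuroblasts, epidermis and gut. At a divergent promoter, genes on opposite strands share the same upstream DNA, so a bound region between them cannot be assigned to either gene from its position. Many worm transcripts are also trans-spliced, so an annotated start may lie downstream of the place where transcription begins.

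The DNA under some of these regions shows how such sites look. Sequences are given for the plus strand of WBcel235 as in RefSeq, 5′ to 3′, with TGACAG or its reverse complement CTGTCA in capitals. The first stretch is the DNA within 100 bp of the summit of the highest region, between the chemoreceptor gene srh-70 and the homeobox gene ceh-99 (chrII:12518932-12519132). It holds the word at 2 places, both on the minus strand, centred 65.5 bp to the left and 8.5 bp to the right of the summit.
srh-70/ceh-99: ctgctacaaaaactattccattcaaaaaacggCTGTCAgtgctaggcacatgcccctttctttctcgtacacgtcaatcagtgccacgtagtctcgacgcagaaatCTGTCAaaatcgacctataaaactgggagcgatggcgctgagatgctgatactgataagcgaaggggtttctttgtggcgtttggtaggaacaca

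The next stretches give the word with 30 bases on either side for 4 more regions. Of the first 8 regions by signal with the word on chromosomes II to V, these and the first have it between the starts. They lie at chrIV:3012498-3012563, chrII:8185155-8185220, chrV:13909527-13909592 and chrIV:6336742-6336807.
Y54G2A.28/vrp-1: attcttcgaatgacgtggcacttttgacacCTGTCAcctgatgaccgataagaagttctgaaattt
mig-5/cct-1: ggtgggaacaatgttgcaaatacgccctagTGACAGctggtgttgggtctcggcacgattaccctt
C06B3.6/C06B3.7: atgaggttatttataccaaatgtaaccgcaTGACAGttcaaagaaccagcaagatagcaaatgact
mif-4/ipla-6: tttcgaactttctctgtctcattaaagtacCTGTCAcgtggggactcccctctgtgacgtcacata

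Most of the strongest regions did not hold the word. For contrast, the 30 bases on either side of the summit are shown for 4 of them, at chrIII:10759223-10759283, chrV:14685756-14685816, chrIV:13240668-13240728 and chrIII:4899869-4899929.
K01G5.10/tasp-1: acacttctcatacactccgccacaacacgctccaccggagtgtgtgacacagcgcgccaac
C47E8.4/hsp-90: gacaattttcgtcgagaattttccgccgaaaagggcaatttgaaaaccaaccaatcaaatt
rpl-12/lin-54: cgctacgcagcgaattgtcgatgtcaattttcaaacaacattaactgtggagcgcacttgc
nhl-2/tag-340: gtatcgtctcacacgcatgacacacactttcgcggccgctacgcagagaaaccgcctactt

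Regions at divergent promoters were a small class that took a larger share of regions than of DNA. They were 7.76% of the autosomal regions (interval 6.95 to 8.65), while the DNA that meets the same rule, 2841267 bp, is 3.44% of autosomal length, a ratio of 2.25. Promoters with starts on 1 strand only held 1440 autosomal regions, 38.0% (36.5 to 39.6), on 29.5% of autosomal length, a ratio of 1.29. The remaining 2056 autosomal regions lay outside promoter windows. By chromosome there were 42 regions at divergent promoters on I, 58 on II, 69 on III, 57 on IV and 68 on V. Chromosome III had the highest ratio of region share to length share, 2.85, and chromosome I the lowest, 1.90. On X, which the rule leaves out, 12 of 1038 regions (1.16%, 0.663 to 2.01) lay at divergent promoters on 0.930% of its length, a ratio of 1.24.

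The share differed between the deposited lists and was above the share of length in each of the 4. It was 5.07% (4.73 to 5.44) in the list of replicate 1 and 4.79% (4.47 to 5.12) in that of replicate 2, both unthresholded and long. In the authors' thresholded list it was 12 of 120 autosomal regions, or 10% (5.81 to 16.7), an interval that includes the pooled share. Among autosomal regions outside that list but with a q-value of 0.05 or less it was 16 of 118, or 13.6% (8.52 to 20.9). Among the remaining 3552 it was 7.49% (6.67 to 8.40).

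**Figure D1:**
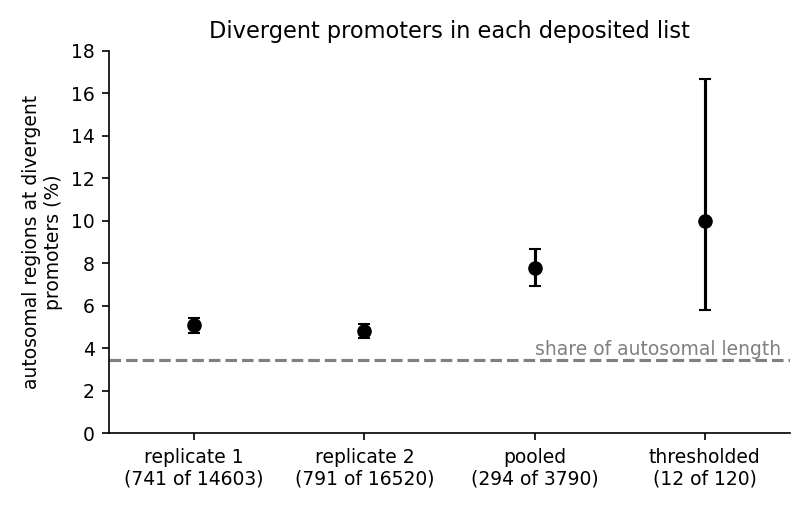
Share of autosomal regions whose summit lies at a divergent promoter (vertical axis, percent) in each deposited list; bars are 95% Wilson intervals and the dashed line is the share of autosomal length that meets the same rule. All 4 points lie above the line at 3.44%, from 4.79% in replicate 2 to 10% in the thresholded list.

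Of the 294 regions, 12 were in the thresholded list (4.08%, 2.35 to 6.998), against 4.06% of all 4849 pooled regions, which is the same level. Those at a q-value of 0.05 or less numbered 28 (9.52%, 6.67 to 13.4), against 7.26% of all pooled regions. For the thresholded share the difference from promoters with starts on 1 strand was 0.89 percentage points, with a 95% Newcombe interval from -1.13 to 3.91 that includes 0. For the q-value it was 2.86 points (-0.32 to 6.93) against those promoters and 3.98 points (0.93 to 7.98) against regions outside promoters. The authors' signal, on a scale not given in the sources used here, ran from 7.60 to 102.8 in the 294 regions, with a median of 9.46 (order-statistic interval 9.12 to 9.76). The median was 9.27 (9.15 to 9.41) at promoters with starts on 1 strand and 8.99 (8.89 to 9.14) outside promoters. The interval for divergent promoters overlapped both of these, the second only at its edge, and all 3 medians lay near the foot of the list. Intervals cover the counting of regions only, and regions of the same library are not replicates.

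The region at srh-70 and ceh-99 stood far above the rest. Its signal was 102.8 in the pooled list, 39.2 in replicate 1 and 63.2 in replicate 2, which placed it at rank 6, 2 and 9 of those lists. It spans chrII:12518824-12519239, and its summit lay 949 bp upstream of ceh-99 and 173 bp from the start of srh-70, which encodes a predicted serpentine chemoreceptor. Annotated miRNA and snoRNA genes lie within 500 bp, and whether their starts face the region was not examined. No other of the 294 regions came near this one in signal.

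That next region, between K01G5.10 and tasp-1 (chrIII:10759045-10759460), had signals of 31.5 in the pooled list, 10.3 in replicate 1 and 21.2 in replicate 2. Its summit lay 54 bp upstream of tasp-1, which encodes a threonine aspartase, and 731 bp upstream of K01G5.10. It ranked 61 in the pooled list, 141 in replicate 1 and 63 in replicate 2, so it was high in both.

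Next are the regions at ribosomal protein genes and at iff-2. The region at rpl-15, a protein of the large ribosomal subunit, and K11H12.8 (chrIV:654763-655178) had signals of 27.3 pooled, 8.42 in replicate 1 and 15.9 in replicate 2. That at rpl-12 and lin-54, the latter a DNA-binding subunit of the DREAM complex (chrIV:13240490-13240905), had 22.0, 11.1 and 11.2, with its summit 47 bp upstream of rpl-12 and 346 bp upstream of lin-54. At rpl-20 and Y17G9B.5 (chrIV:4749840-4750255) the values were 21.1, 7.18 and 13.6. These 3 ranked from 86 to 181 in the pooled list, and in each the replicate ranks lay between 113 and 479. The region at iff-2, an orthologue of the translation factor eIF5A, and F54C9.14 (chrII:8561270-8561685) had 21.6, 8.95 and 10.7, and ranked 225 and 392 in the replicates.

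The region between C47E8.4 and the chaperone gene hsp-90 (chrV:14685578-14685993) had signals of 27.7 pooled, 10.3 in replicate 1 and 16.7 in replicate 2, with its summit 301 bp and 374 bp upstream of the starts and in an annotated intron. Between let-70, a ubiquitin-conjugating enzyme, and klc-1, a kinesin light chain (chrIV:11082754-11083169), the values were 22.3, 10.3 and 12.8. The summit there lay more than 700 bp from either start, 709 bp upstream of let-70 and 773 bp upstream of klc-1, with a snoRNA gene within 500 bp. The region at rbc-2, a rabconnectin, and ndua-8, a subunit of respiratory complex I (chrIII:2528612-2529027), had 28.6, 14.7 and 12.6, and also lay in the window of Y54F10AM.15. It was the only one of the 12 with a lower value in replicate 2 than in replicate 1.

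In the remaining 3 the replicates differed in rank to various degrees. At Y54G2A.28 and vrp-1 (chrIV:3012364-3012779) the signals were 26.9 pooled, 11.4 in replicate 1 and 15.6 in replicate 2, at similar ranks of 111 and 125. At C42D4.13 and srlf-7 (chrIV:7188841-7189256) they were 26.1, 6.53 and 18.8, at rank 669 in replicate 1 but 81 in replicate 2. At nhl-2, a TRIM-NHL protein that acts with the microRNA machinery, and tag-340 (chrIII:4899691-4900106) they were 23.0, 5.53 and 15.5, at ranks 1266 and 127. None of the 12 lay on chromosome I, where 42 of the 294 regions lie, but 12 regions are too few to show an absence there.

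The 16 regions at a q-value of 0.05 or less outside the thresholded list had pooled signals from 16.7 to 20.1, just under those of the list. The highest was at ndk-1, a nucleoside diphosphate kinase, and F25H2.6, with signals of 20.1 pooled, 11.7 in replicate 1 and 9.38 in replicate 2. At T28F4.4 and T28F4.8 the signal was 19.9 pooled, but 2.24 in replicate 1, at rank 15622, against 17.4 in replicate 2, at rank 94. That region therefore came almost wholly from replicate 2, and it is 1 of the 9 with overlapping genes. At rnf-121 and C16C10.4 the values were 18.96, 5.51 and 13.2. At K07H8.7 and vit-6, a yolk protein gene, they were 18.7, 6.80 and 9.75, with the summit 178 bp upstream of vit-6 and 975 bp upstream of K07H8.7. At fat-6, a stearoyl-CoA desaturase, and ZK822.9 they were 18.5, 8.19 and 9.26, with the summit 185 bp inside fat-6.

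Within the shared promoter DNA the summits lay toward the stretch between the starts. Of the 294, 187 (63.6%, 57.96 to 68.9) had the summit between the starts, whereas 49.99% of positions in the divergent promoter windows lie there. The summit lay at or downstream of the minus-strand start in 40 and of the plus-strand start in 58, and the other 9 lie at overlapping genes. By the annotation of the summit base, 41 (13.95%, 10.5 to 18.4) were in coding exons, which hold 30.5% of the window positions. UTRs held 34 summits (11.6% against 7.60% of positions), introns 46 (15.6% against 18.3%) and DNA outside protein-coding genes 173 (58.8% against 43.5%). At promoters with starts on 1 strand the summits leaned in the same directions. Coding exons held 18.8% of summits against 26.2% of positions, and introns 23.0% against 29.35%. UTRs held 11.2% against 7.38%, and DNA outside protein-coding genes 47.1% against 37.05%. Of these summits 69.8% lay upstream of the nearest start, against 63.2% of positions.

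All 12 thresholded regions had the summit between the starts, as did 12 of the 16 others at a q-value of 0.05 or less and 163 of the remaining 266 (61.3%, 55.3 to 66.9). The Wilson interval for the 12 reaches down to 75.8%, above the upper end of that for the 266. None of the 12 had its summit in a coding exon. Read alone, the replicates gave 58.7% between the starts in replicate 1 (55.1 to 62.2, 741 regions) and 57.7% in replicate 2 (54.2 to 61.1, 791 regions), both above the share of positions. The coding share was 25.5% and 21.9% in these longer lists, nearer to the 30.5% of positions than in the pooled list. In the highest 4849 regions of each replicate the share between the starts was 64.7% and 59.4%. The coding share there was 19.9% (15.4 to 25.4) in replicate 1 and 20.9% (16.3 to 26.4) in replicate 2. Both were still above the 13.95% of the pooled list, though their intervals overlapped that of the pooled list (10.5 to 18.4).

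**Figure D2:**
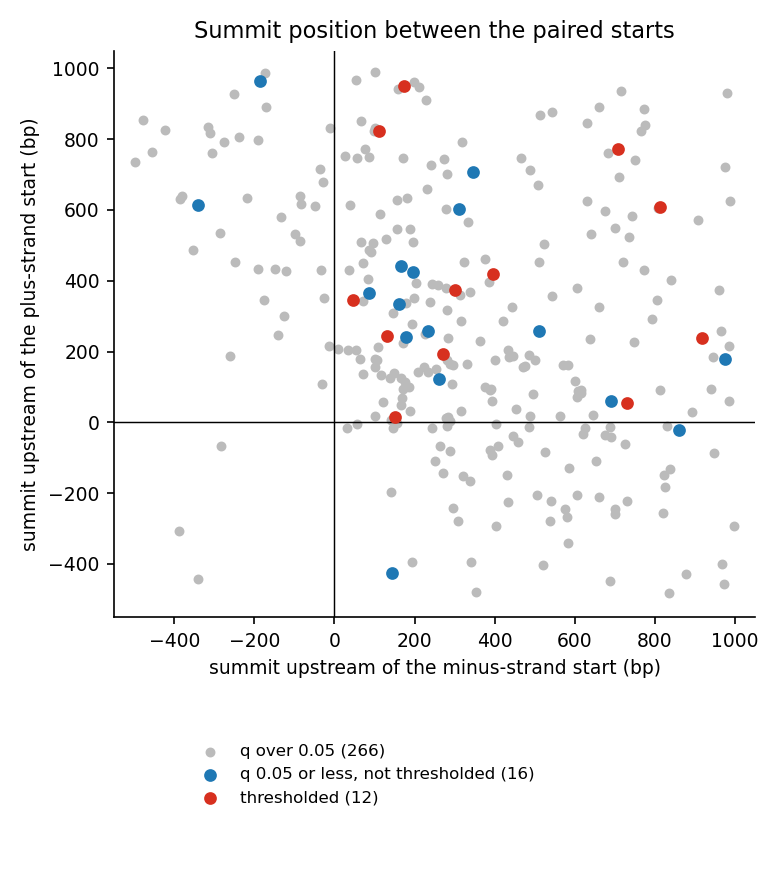
Each point is 1 of the 294 regions, placed by the distance of its summit upstream of the minus-strand start (horizontal, bp) and of the plus-strand start (vertical, bp), with negative values downstream of the start; colours give the strength class. The 12 thresholded regions all lie at the upper right, upstream of both starts.

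The distance between paired starts was that of the windows at large. It ran from 15 to 1914 bp with a median of 578 bp over the 285 head-to-head regions, in which a pair with more than 1 region counts each time, and the positions of all divergent windows had a median of 579 bp. The nearest start lay a median of 173 bp from the summit (203 bp over all positions), within 100 bp in 93 regions, within 250 bp in 202 and within 500 bp in 268. Both starts lay within 250 bp in 39. The nearer start was on the minus strand in 137 and on the plus strand in 157. In the central 50% of chromosome length lay 181 of the regions (61.6%, 55.9 to 66.9), against 58.6% of window positions. No annotated non-coding gene lay within 500 bp of 233 summits. The class named ncRNA lay near 39, snoRNA genes near 7, snRNA genes near 4, miRNA genes near 3 and tRNA genes near 3.

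Regions at divergent promoters were not all separate events. They belonged to 272 gene pairs, and 21 pairs held more than 1 region, 43 regions in all. Another pooled region overlapped 37 of the 294. A weaker region beside a strong one can match the same replicate region. Even with the replicate region of nearest summit taken as the match, the 294 include 16 that share a replicate 1 region and 22 that share a replicate 2 region. For example, a second region at C47E8.4 and hsp-90, at pooled rank 4319, took rank 100 in replicate 2 from the strong one. When only regions that overlap no stronger pooled region were kept, 274 remained, 7.60% of 3603 autosomal regions (6.78 to 8.52).

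A region in both replicate lists, by at least 1 bp of overlap, was found for 196 of the 294 (66.7%, 61.1 to 71.8), against 57.6% of all pooled regions. The share was 59.4% (56.9 to 61.95) at promoters with starts on 1 strand, a difference of 7.22 points (1.11 to 12.97), and 54.2% (52.0 to 56.3) outside promoters, a difference of 12.5 points (6.51 to 18.1). Only replicate 1 listed 31, only replicate 2 listed 65, and 2 were in neither list. The replicate lists are long and the pool holds the same reads, so this share is a description. With any overlapping region among the 4849 highest of each replicate required the count was 76 (25.9%, 21.2 to 31.1). With the summits required to lie within 100 bp it was 118 (40.1%, 34.7 to 45.8). With the replicate region of nearest summit required to be among the 4849 highest of each replicate, the count was 66 of 294. By that rule it was 273 of 1440 at promoters with starts on 1 strand and 320 of 2056 outside promoters. Intervals of the differences between classes were computed only for overlap of at least 1 bp. Whether the differences hold under the stricter rules was not tested.

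Each of the 12 thresholded regions had a q-value of 0.05 or less in both replicates, whereas 22 of all 294 did. Over all 294, 78 passed that value in replicate 1 and 49 in replicate 2. The thresholded list was itself made with the replicate lists, so its contrast with all 294 follows in part from how it was made. The 2 regions at mtx-1, a metaxin, with dnj-12, and at ugt-41 with srh-83 had pooled signals of 16.7 and q-values of 0.05 or less without a region in replicate 1. The signal of replicate 2 over that of replicate 1 had a median log2 ratio of 0.63 (0.46 to 0.73) in the 196 regions found in both. It was 0.55 (0.47 to 0.62) at promoters with starts on 1 strand and 0.52 (0.47 to 0.58) outside promoters, so the interval for divergent promoters overlapped both. The scale of the lists may differ, so the level of these ratios cannot be read as more or less binding in either replicate.

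**Figure D3:**
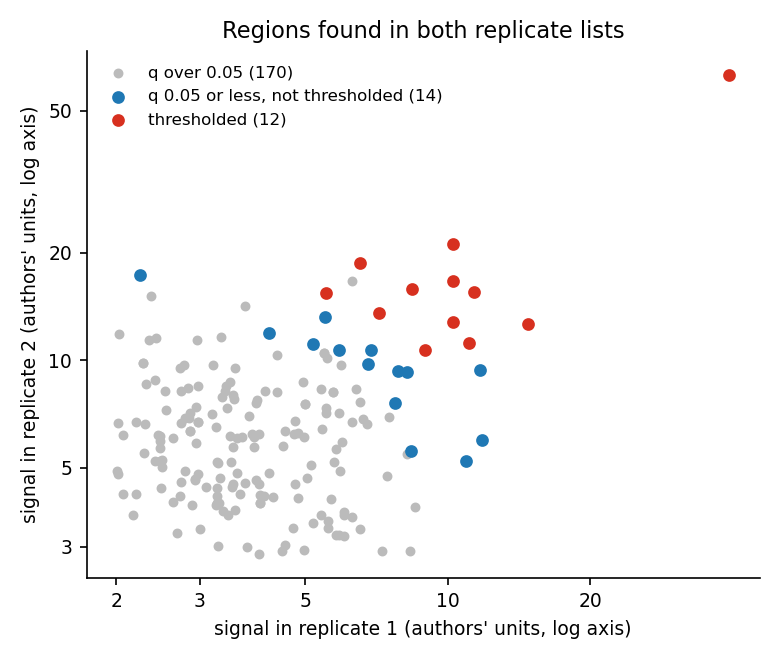
Signal in replicate 1 (horizontal, authors' units, log axis) against replicate 2 (vertical, same) for the 196 regions found in both lists, coloured by strength class. The srh-70 and ceh-99 region lies alone at the upper right, at 39.2 and 63.2, and the other thresholded regions lie above and to the right of most others.

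The word TGACAG, read on both strands up to 100 bp from each summit, occurred in 27 of the 294 regions (9.18%, 6.39 to 13.03). It occurred in 6.57% of windows of the same width over all divergent promoter DNA, which lies within that interval. The share was 8.06% (6.76 to 9.58) at promoters with starts on 1 strand, 1.13 points lower (-2.05 to 5.19). Outside promoters it was 10.3% (9.02 to 11.7). By strength, the word was in 2 of the 12 thresholded regions, 2 of the 16 others at a q-value of 0.05 or less and 23 of the remaining 266 (8.65%, 5.83 to 12.6). Thresholded regions held it in 9 of 46 cases (19.6%, 10.7 to 33.2) at promoters with starts on 1 strand and in 23 of 62 (37.1%, 26.2 to 49.5) outside promoters. The interval for the 12 runs from 4.70% to 44.8% and holds the shares of both other classes. The share in the 12 could therefore not be told from either.

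The 27 regions held 30 copies of TGACAG, with 11 on the plus strand and 19 on the minus strand, and 3 regions held more than 1. Within 50 bp of the summit lay 16 of the copies. Outside protein-coding genes lay 19, in UTRs 4, in coding exons 4 and in introns 3. Regions with the word had a median signal of 9.70 (8.56 to 11.7) and those without it 9.38 (9.08 to 9.75), with overlapping intervals. Both replicates listed 20 of the 27 and 176 of the 267 without it (74.1% and 65.9%). Median GC content within 100 bp of the summit was 38.3% with the word and 36.8% without.

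The other words searched, on either strand in the same windows, differed little between divergent promoters and promoters with starts on 1 strand. TGACA, which every TGACAG contains, was in 37.8% (32.4 to 43.4) against 40.3% at the latter and 32.2% of windows over divergent promoter DNA. The E-box CACGTG was in 6.46% (4.18 to 9.87) and the GA repeat GAGAGAG in 6.46% (4.18 to 9.87), where 3.60% and 2.63% of windows held them. The same words were in 6.25% and 8.26% of regions at promoters with starts on 1 strand. TGATAA, a word of GATA factors, was in 24.5% (19.9 to 29.7) against 19.2% of windows, and AGATAA in 11.6% (8.40 to 15.7) against 12.5%. TTTCAGA, searched as a comparison word, was in 12.9% (9.56 to 17.2) against 18.04% of windows. TGATNNAT was in 16.3%, TATAAA in 22.4% and GGGCGG in 5.10%, each with an interval that held the share of windows. The Pbx-Meis composite TGATTGACA was in 0 of 294, which allows up to 1.29% by the Wilson interval, and in 0.199% of windows. For each of the 11 words the interval of the difference from promoters with starts on 1 strand included 0.

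**Figure D4:**
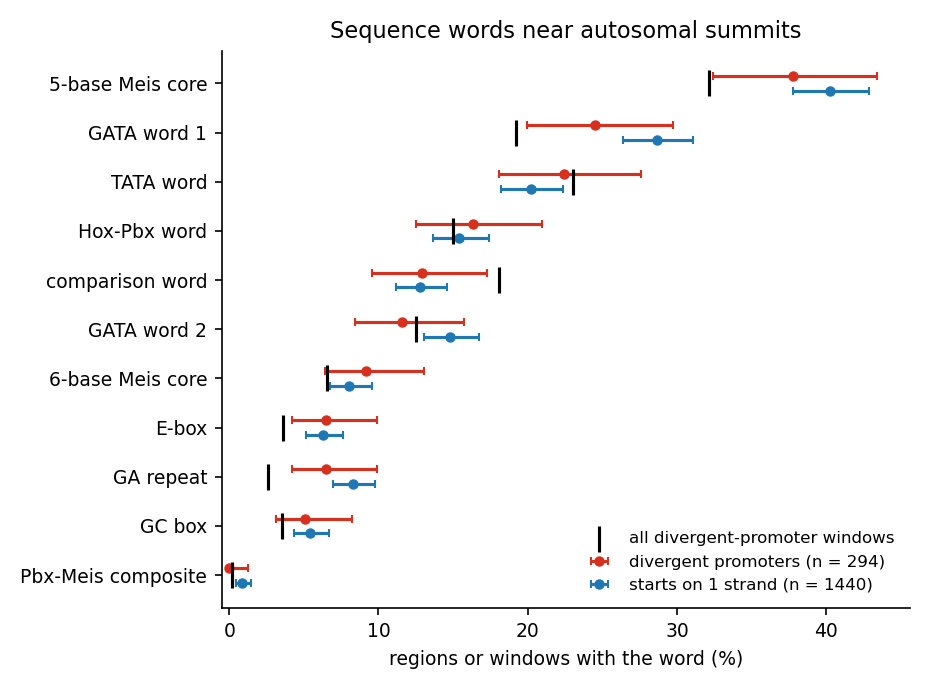
Share of regions with each of 11 words within 100 bp of the summit (horizontal, percent) at divergent promoters and at promoters with starts on 1 strand, with 95% Wilson intervals; black ticks give the share of windows over all divergent promoter DNA. The intervals of both classes overlap for each word. At divergent promoters those of the shorter Meis core, the first GATA word, the E-box and the GA repeat lie to the right of the tick and that of the comparison word to the left.

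Genes with a region at a divergent promoter numbered 555 of the 5547 autosomal protein-coding genes whose windows meet the rule, or 10%, and each gene list is given beside that share. The lists were grouped by gene symbol, and both genes of a pair count. The intervals treat each gene as separate, so they are too narrow where genes of the same list share a promoter. Of 54 genes for cytosolic ribosomal proteins, 14 had such a region (25.9%, 16.1 to 38.9). The highest were rpl-15, rpl-12 and rpl-20, in the thresholded list. Next came rps-1, of the small subunit, whose region lies between it and ifet-1, with signals of 16.7 pooled, 8.36 in replicate 1 and 5.56 in replicate 2. At rps-15 they were 16.6, 5.96 and 9.73, and at rps-23 12.2, 5.43 and 6.39. The other 8 ranked below 1000 in the pooled list, with signals down to 7.60, and 5 of those 8 lacked a region in 1 of the replicates. None of the 14 regions held TGACAG, where 9.18% of all 294 did, and 14 regions are too few to tell these shares apart. Taking the 4849 highest regions of each replicate alone, the count was 11 of 54 in replicate 1 (20.4%, against 8.26% of all genes) and 15 of 54 in replicate 2 (27.8%, against 8.62%).

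Chaperone genes, listed by the symbols hsp-, cct- and dnj- only, had a region in 7 of 32 cases (21.9%, 11.0 to 38.8). These were hsp-90, cct-1, cct-8, dnj-12, dnj-13, dnj-22 and hsp-60. The chaperonin subunit cct-1 shares its region with mig-5, a dishevelled protein of Wnt signalling. That region had signals of 18.1 pooled, 11.8 in replicate 1 and 5.96 in replicate 2, and ranked 89 in replicate 1 but 3155 in replicate 2. At cct-8, of the same chaperonin, the values were 16.9, 5.90 and 10.7. The J-domain protein gene dnj-12 had 16.7 pooled and 12.8 in replicate 2. Of the 7 regions, 4 were not listed in replicate 1, and the count from the highest regions of that replicate alone was 4 of 32 (12.5%).

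Genes of tRNA synthetases had a region in 5 of 15 cases (33.3%, 15.2 to 58.3), with 3 of 15 from either replicate alone. The highest, at the alanyl-tRNA synthetase gene aars-1 and rga-1, had 16.2 pooled, 5.49 in replicate 1 and 10.5 in replicate 2, with its summit 33 bp inside aars-1. Genes listed as respiratory chain and ATP synthase, by the symbols nuo-, cox- and atp-, had 4 of 14 (28.6%, 11.7 to 54.6). These 4 had signals of 7.83 to 11.7, and the count was 2 of 14 (14.3%) from the highest regions of either replicate alone. This list leaves out respiratory genes with other symbols, such as ndua-8, whose region is in the thresholded list. It goes by symbol alone, and whether each gene in it, such as cox-10, encodes a subunit was not checked. Sm protein genes of the spliceosome had 2 of 6 (33.3%, 9.68 to 70.0), snr-5 and snr-1. Homeobox genes had 2 of 9 (22.2%, 6.32 to 54.7), ceh-99 and ceh-38. The intervals of Sm protein and homeobox genes included the 10% of all genes. Of Wnt genes 2 of 3 had a region, mig-5 and apr-1, and the only yolk protein gene at a divergent promoter, vit-6, had one. With so few genes these shares have wide intervals.

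The intervals of the next lists also included the 10% of all genes. Nuclear hormone receptors had 5 of 45 (11.1%, 4.84 to 23.5), detoxification enzymes 6 of 46 (13.04%, 6.12 to 25.7), proteasome subunits 3 of 24 (12.5%, 4.34 to 31.0), mitochondrial ribosomal proteins 3 of 31 (9.68%, 3.35 to 24.9) and neuropeptides and insulins 2 of 17 (11.8%, 3.29 to 34.3). From the highest regions of single replicates, detoxification enzymes had 7 of 46 (15.2%) in replicate 1 but 2 of 46 (4.35%) in replicate 2, neuropeptides and insulins 0 and 1 of 17, and nuclear hormone receptors 3 of 45 (6.67%) and 4 of 45 (8.89%). Among the pooled regions, pbs-1, a proteasome subunit, had signals of 13.8 pooled, 5.72 in replicate 1 and 8.16 in replicate 2. The mitochondrial ribosomal gene mrps-7 had 12.4, 5.04 and 4.67. At ugt-41, a glucuronosyltransferase, the signal was 16.7 pooled and 16.3 in replicate 2.

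No region was listed at the divergent promoters of 64 histone genes, which allows up to 5.66% by the Wilson interval, of 46 cuticle collagen genes (up to 7.71%), of 15 major sperm protein genes (up to 20.4%) or of 1 GATA factor gene. These limits are too low where genes of a list share a promoter, and the number of separate promoters was not counted. Histone and major sperm protein genes occur as near-identical copies, where reads can be hard to place, and its part in these counts was not tested. From the highest regions of replicate 1 alone 2 of the 64 histone genes had a region, and from those of replicate 2 none did. For the collagens the count was 0 in either replicate.

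**Figure D5:**
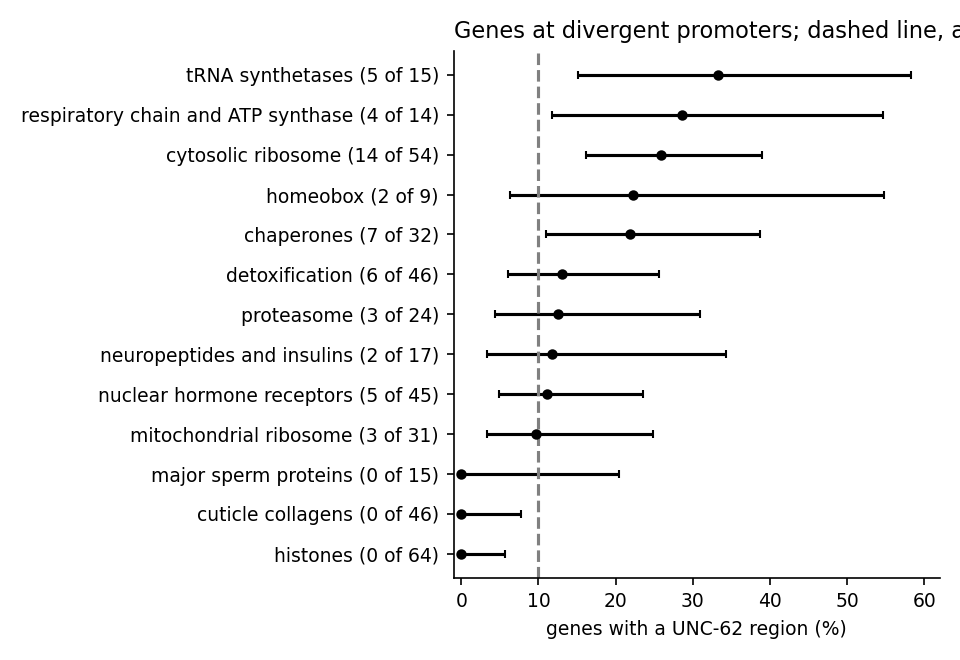
Share of genes at autosomal divergent promoters that had a UNC-62 region there (horizontal, percent), with 95% Wilson intervals. Gene lists are by symbol and of 9 or more such genes, and genes that share a promoter count separately, which narrows the intervals. The dashed line is the 10% of all 5547 genes. The intervals of tRNA synthetases, respiratory chain genes, cytosolic ribosomal proteins and chaperones lie to the right of the line, and those of collagens and histones to the left.

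At the edge of the rule, 21 of the 294 regions lay within 50 bp inside the window limit and 12 other regions within 50 bp outside it. The region at ZK1248.17 and H41C03.3 on II was included by 1 bp, with a signal of 16.2. Its summit lay 499 bp downstream of the start of ZK1248.17, at a base outside protein-coding genes. Its signals were 5.89 in replicate 1 and 7.10 in replicate 2, and it overlaps a stronger pooled region that the rule leaves out. That on III was included with its summit 999 bp upstream of mxl-2 and a signal of 9.22. Just outside were a region on II, 1001 bp upstream of T07D3.9, with a signal of 8.16, and a region on I, 1011 bp upstream of timm-23, with a signal of 14.3.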

How the data were processed

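ChIP-seq of UNC-62 was read from the peak lists that the authors deposited for build ce11. Per the file headers in the deposited read-me texts, a replicate's list came from its own alignments and a control, the pooled list from both replicates and a control, and the thresholded list from those 3 lists. The sources used here do not give the aligner, caller or threshold. Each region's signal value was deposited by the authors on an unstated scale, and was compared within a list or as a ratio between replicates. The −log10 of the q-value was also deposited by the authors. In the pooled list 276 regions shared the lowest q of 0.0381, and 17 of these are among the 294. The replicate and pooled lists are unthresholded and contain background regions, read counts are not in them, and the depth is unknown. The control, the ce10 lists and signal tracks were not used here.

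Coordinates are 1-based. Genes came from the WBcel235 annotation of Ensembl release 115 and sequence from RefSeq's WBcel235 genome. Positions of promoter windows were sampled every 50 bp. A replicate's value for a pooled region came from the overlapping region of nearest summit. Words were searched on both strands within 100 bp of the summit. Shares carry 95% Wilson intervals, differences Newcombe intervals and medians order-statistic intervals. All cover counting only, and no test was run, since the design holds 1 group of 2 replicates, which the labels call biological. The scripts were tested on simulated data and used Python 3.11.15, numpy 2.4.6, pandas 2.3.3 and scipy 1.17.1.

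Named regions were all thresholded ones, the 5 of highest signal among the others at a q-value of 0.05 or less, and those at genes of the 17 lists among the 1000 highest pooled regions. Lower ones were named to complete short lists, after their values were seen. The regions, gene lists and words were chosen with earlier results of these data known.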

Additional observations from a re-analysis of the deposited data

How the results depend on the processing

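Of 62 values computed under other settings, 40 moved by less than their interval and 22 by more. Both differences from promoters with starts on 1 strand have main intervals that include 0, and both changed sign: that of the thresholded share under 1 setting and that of TGACAG under 5. With a window from 500 bp upstream to 250 bp downstream, the share of autosomal regions at divergent promoters was 3.33% on 1.05% of length, the share between the starts 73.0% and the share of cytosolic ribosomal genes 14.6%, against 6.66% of all genes. At a q-value of 0.05 or less these shares were 11.8%, 85.7% and 7.41% (against 1.03%), the thresholded share was 42.9%, the share in both replicates 92.9%, the median signal 19.4, the TGACAG share 14.3%, and the differences from promoters with starts on 1 strand -5.06 points for the thresholded share and -5.51 for TGACAG. The TGACAG difference was -1.66 points with the narrower window and -0.41 and -0.13 in single replicates. In the thresholded list the TGACAG share was 16.7% and its difference -2.90 points. With TGACAG sought within 50 bp the share was 4.76%. The share in both replicates was 57.1% with overlap of at least 50% of the shorter region, 40.1% with summits within 100 bp, and 25.9% among the highest 4849 of each replicate. From single replicates the divergent share ranged from 4.79% to 5.07%, the share between the starts from 57.7% to 58.7%, and the share of ribosomal genes from 38.9% to 44.4%, where 23.9% and 25.5% of all genes had a region. The settings for the share between the starts and for ribosomal genes, and the one that leaves out overlapping regions, were added after seeing the data. Some of these moves follow from the settings. A narrower promoter window can only lower the divergent share, a shorter search distance the TGACAG share, and stricter overlap the share in both replicates. The cut at a q-value of 0.05 or less keeps all thresholded regions among fewer others and drops regions of low signal. The cause of the other moves was not tested. No paired analysis was possible because the study has a single group. Without read counts, how far depth limits the weak regions is unknown.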
